A study of Mus musculus with 24 samples.

Results

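The genes described here encode 31 enzymes of serine, one-carbon and nucleotide synthesis in murine B-cell acute lymphoblastic leukaemia (B-ALL) cells. They were chosen by name, and a member had to reach a mean expression value equal to a normalised count of at least 10. All 31 passed that filter, out of 11470 genes tested and 41444 listed. Every cell in the study came from mouse bone marrow by its label and held floxed Foxo1 alleles, the BCR-ABL1 oncogene and Cre-ERT2, a Cre recombinase that needs 4-hydroxytamoxifen (4-OHT) to act. Cells received 200 nM 4-OHT (libraries that the labels also call CrePlus) or its solvent ethanol (EtOH, also called CreMinus), and 70 nM AS1842856, a small-molecule FOXO1 inhibitor, or its solvent DMSO. RNA was taken after 24 h and after 48 h, with 3 libraries in each of the 8 groups. No group received 4-OHT with Foxo1 intact or without Cre, so loss of Foxo1, Cre activity and 4-OHT itself cannot be told apart. The sources used here do not give the promoter of the Cre transgene or say whether the cells were 1 clone. Nothing in the labels says that a group's libraries came from separate cultures, so the p-values measure the spread among libraries, which may be technical.

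Serine made from a glycolytic intermediate hands a carbon unit to folate, and that unit is used to build purine rings and thymidylate. Purines are assembled on an activated ribose phosphate until inosine monophosphate (IMP) is reached, which is then turned into AMP or GMP, whereas the pyrimidine ring is made first and joined to the ribose afterwards. Ribonucleotide reductase converts the products to deoxynucleotides for DNA replication, and growing leukaemia cells depend on these routes. MYC and ATF4 are transcription factors known to drive many of the genes, and FOXO1 is a transcription factor that developing B cells need.

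Values are the authors' normalised log2 expression values per library, from which reads cannot be counted back, and the libraries' depth is unknown. Whether they were scaled by gene length is not given, and levels are therefore compared between samples and not between genes. Differences computed from them ran below the log2 fold changes of the authors' deposited table, with a median ratio of 0.667 over 14 members called by both in the 24 h 4-OHT comparison and 0.664 over 25 members at 48 h. In bulk RNA, fewer cells of a type and less RNA per cell cannot be told apart. Each library's median over the tested genes was from 9.16 to 9.23. The 8 B-lineage markers were expressed in every group, with summed levels of 15.69 to 16.08 on the log2 scale. None of 7 T and NK cell or 5 erythroid markers reached the filter, and Cd4, Hbb-bs, Hbb-bt and Hba-a1 were listed at 0 in every library. A pair of libraries stood apart in the mean of the 31 members. AS1842856 replicate 3 at 24 h had a member mean of 11.56, against 11.77 and 11.76 in the other AS1842856 libraries of that time. DMSO replicate 1 at 48 h had 11.43, against 11.63 and 11.65 in the other DMSO libraries of that time.

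Start regions are shown for the members the results turn on: the pair with the largest falls after 48 h of 4-OHT (Psph and Mthfd2), a pair of neighbours read from opposite strands that responded differently (Ppat and Paics), and a pair of paralogs that were called in opposite directions (Prps1 and Prps2). Each is the RefSeq window of 300 bases, from 250 bases before the annotated start, on build GRCm38.p6, written 5′ to 3′ on the gene's strand. Capitals mark a match on either strand to an E-box (CACGTG), to a C/EBP-ATF core (TGATGNAA) or to a FOXO motif (GTAAACA).
Psph, chr5:129787204-129787503, minus strand: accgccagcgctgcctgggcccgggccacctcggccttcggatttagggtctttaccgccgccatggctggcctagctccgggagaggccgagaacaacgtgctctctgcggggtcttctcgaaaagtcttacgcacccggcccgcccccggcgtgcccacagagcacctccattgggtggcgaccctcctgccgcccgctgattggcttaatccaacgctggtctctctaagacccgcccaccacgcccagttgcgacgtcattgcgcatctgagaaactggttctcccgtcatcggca
Mthfd2, chr6:83317555-83317854, minus strand: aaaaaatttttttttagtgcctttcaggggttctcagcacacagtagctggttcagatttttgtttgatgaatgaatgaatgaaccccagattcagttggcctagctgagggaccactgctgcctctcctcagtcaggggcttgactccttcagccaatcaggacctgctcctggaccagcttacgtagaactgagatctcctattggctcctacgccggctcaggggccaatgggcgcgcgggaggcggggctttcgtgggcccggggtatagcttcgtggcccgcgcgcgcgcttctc
Ppat, chr5:76951529-76951828, minus strand: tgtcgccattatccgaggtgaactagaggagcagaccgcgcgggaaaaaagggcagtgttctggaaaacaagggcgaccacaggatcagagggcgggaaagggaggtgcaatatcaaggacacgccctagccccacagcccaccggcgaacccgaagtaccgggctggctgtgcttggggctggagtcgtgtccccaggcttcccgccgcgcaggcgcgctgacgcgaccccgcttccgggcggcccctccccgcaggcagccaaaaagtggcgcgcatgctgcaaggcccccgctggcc
Paics, chr5:76951052-76951351, plus strand: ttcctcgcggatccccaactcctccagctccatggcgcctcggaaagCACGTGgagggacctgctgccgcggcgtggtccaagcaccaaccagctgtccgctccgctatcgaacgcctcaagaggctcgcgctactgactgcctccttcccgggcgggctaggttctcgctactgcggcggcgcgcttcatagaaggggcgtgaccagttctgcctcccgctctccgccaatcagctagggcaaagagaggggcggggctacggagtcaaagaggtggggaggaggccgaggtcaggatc
Prps1, chrX:140456353-140456652, plus strand: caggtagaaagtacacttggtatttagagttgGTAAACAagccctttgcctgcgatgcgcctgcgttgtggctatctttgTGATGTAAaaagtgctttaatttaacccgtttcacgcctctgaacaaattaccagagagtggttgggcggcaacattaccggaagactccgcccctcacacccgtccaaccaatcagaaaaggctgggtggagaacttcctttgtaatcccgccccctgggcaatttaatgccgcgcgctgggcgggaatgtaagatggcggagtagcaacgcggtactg
Prps2, chrX:167382700-167382999, minus strand: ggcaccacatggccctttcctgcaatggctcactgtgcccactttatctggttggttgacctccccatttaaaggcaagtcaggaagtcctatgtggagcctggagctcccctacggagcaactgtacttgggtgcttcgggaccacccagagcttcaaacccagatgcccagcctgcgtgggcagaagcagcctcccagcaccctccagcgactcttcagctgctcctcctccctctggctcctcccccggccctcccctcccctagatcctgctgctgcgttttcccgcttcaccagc
None of the 3 motifs was found in the windows of Psph, Mthfd2, Ppat and Prps2. The Paics window held an E-box starting at -203 from the annotated start, and the Prps1 window held a FOXO motif and a C/EBP-ATF core starting at -170. Of the 31 members, 29 had a RefSeq window, and 6 of their 34 windows held an E-box, against 7.15% of all 32851 windows. The E-box genes were Atic, Impdh2, Nme1, Paics and Tyms. After 48 h of 4-OHT the first 3 of these passed the test as lower, and Paics and Tyms differed by -0.02 ± 0.03 and -0.03 ± 0.06 (log2 difference ± SE) and did not pass. The C/EBP-ATF core stood in 3.97% and the FOXO motif in 3.65% of all windows, and among the members in Prps1.

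After 24 h of 4-OHT, transcripts of 21 of the 31 members were lower and 1 was higher than with EtOH (limma, Benjamini-Hochberg adjusted p under 0.05), where 13.7% of all tested genes were lower and 15.7% higher. The median log2 difference of the members was -0.21, with a range of -0.44 to 0.38, and that of all tested genes was 0. All 3 treated libraries lay below all 3 vehicle libraries for 24 members and above them for 1, against 22.7% and 23.3% of tested genes. The authors' deposited table called 13 members lower and 1 higher, against 8.5% and 11% of its genes, and a single model of all 8 groups called 10 lower. After 48 h, 23 members were lower and 3 were higher, where 25.8% of tested genes were lower and 25% higher. The members' median difference was then -0.43, with a range of -0.94 to 0.37, and that of all tested genes was 0.01. All 3 treated libraries lay below all 3 vehicle libraries for 23 members and above them for 3, against 30.1% and 29.6% of tested genes. The authors' deposited table called 23 lower and 2 higher at that time, against 18.3% and 17.7% of its genes. The members called lower at both times numbered 19, and 1 member, Impdh1, was higher at both. Of the 22 calls at 24 h, 18 held in each fit that left out 1 library, with Dhodh, Nme2, Dck and Rrm2 as the exceptions. Of the 26 calls at 48 h, 25 held, with Rrm2 as the exception.

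AS1842856 left no member past the test at 24 h, where 1 of 11470 genes, or 0.00872%, was called higher and 0% lower. Replicate 3, the treated library with the low member mean, also stood apart at Pnp, a gene of purine salvage. It read 14.09 there, against 13.47 and 13.39 in the other treated libraries and 13.95 to 14.13 with DMSO. Without that library 20 genes were called, and again no member. The lack of calls at 24 h therefore does not show that the compound had no effect. The members' differences ranged from -0.15 to 0.17, and 1 member and 232 genes had an unadjusted p under 0.05. For 1 member, Psph, the treated libraries lay above all vehicle libraries, and for none below, against 3.24% and 3.08% of tested genes. The authors' deposited table called no member at that time, against 0.0864% of its genes higher and 0.0432% lower. At 48 h Paics was lower and no member was higher, with 2.97% and 1.88% of tested genes called. The treated libraries lay wholly above the vehicle libraries for 3 members and below them for 3, against 13.1% and 13.8% of tested genes. Over all tested genes, libraries with the same replicate number deviated together in this comparison (correlations of 0.41, 0.25 and 0.15 for replicates 1 to 3). AS1842856 replicate 2 also went with DMSO replicate 3 (0.18), and AS1842856 replicate 3 with DMSO replicate 2 (0.11). Over the members, the same-number correlations were 0.83, 0.8 and 0.05, and AS1842856 replicate 2 with DMSO replicate 3 gave 0.75. The numbers may thus not mark true pairs. With the replicate number as a block 4 members were higher and 3 lower, against 6.66% and 7.54% of tested genes. The authors' deposited table called 3 members higher and 3 lower at 48 h, against 5.42% and 7.19% of its genes. Without DMSO replicate 1, 2 members were higher and 3 lower, and without any other library of the comparison none was higher and none lower.

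**Figure D1:**
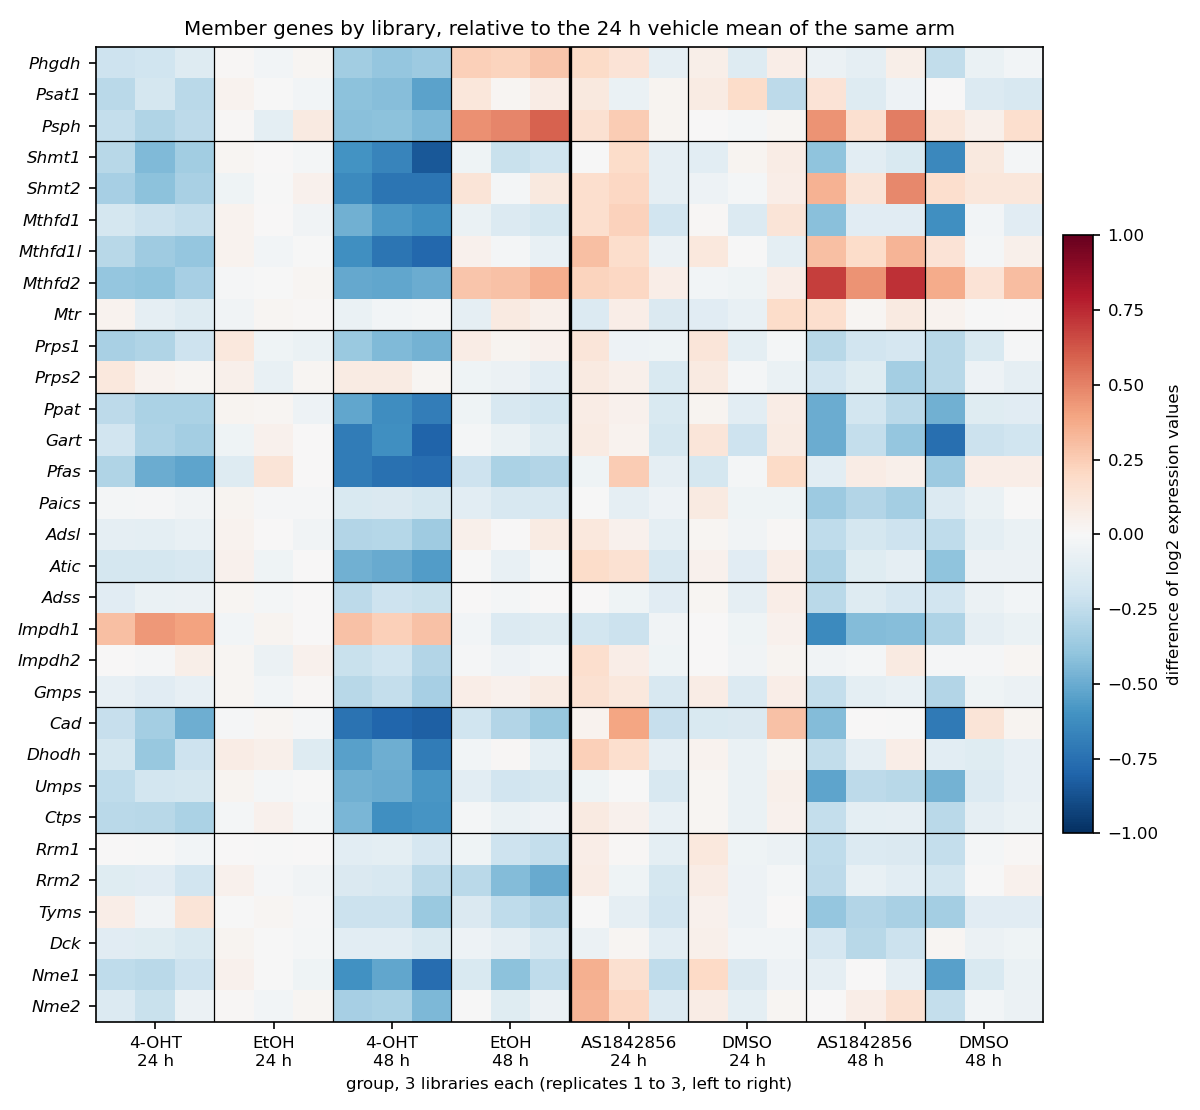
Each cell shows 1 member (rows, ordered by role) in 1 library (columns, replicates 1 to 3 of each group), as the log2 value minus the mean of the 24 h EtOH libraries (left of the thick line) or 24 h DMSO libraries (right of it). Most rows are blue in the 4-OHT columns and darker at 48 h, Impdh1 is red there, and in the AS1842856 columns at 48 h Mthfd2 and Psph are red and Impdh1 is blue. As the baseline is at 24 h, the 48 h colours hold the change with time as well as the treatment. From 24 h to 48 h the DMSO mean moved by 0.27 for Mthfd2, 0.11 for Psph and -0.16 for Impdh1.

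**Figure D2:**
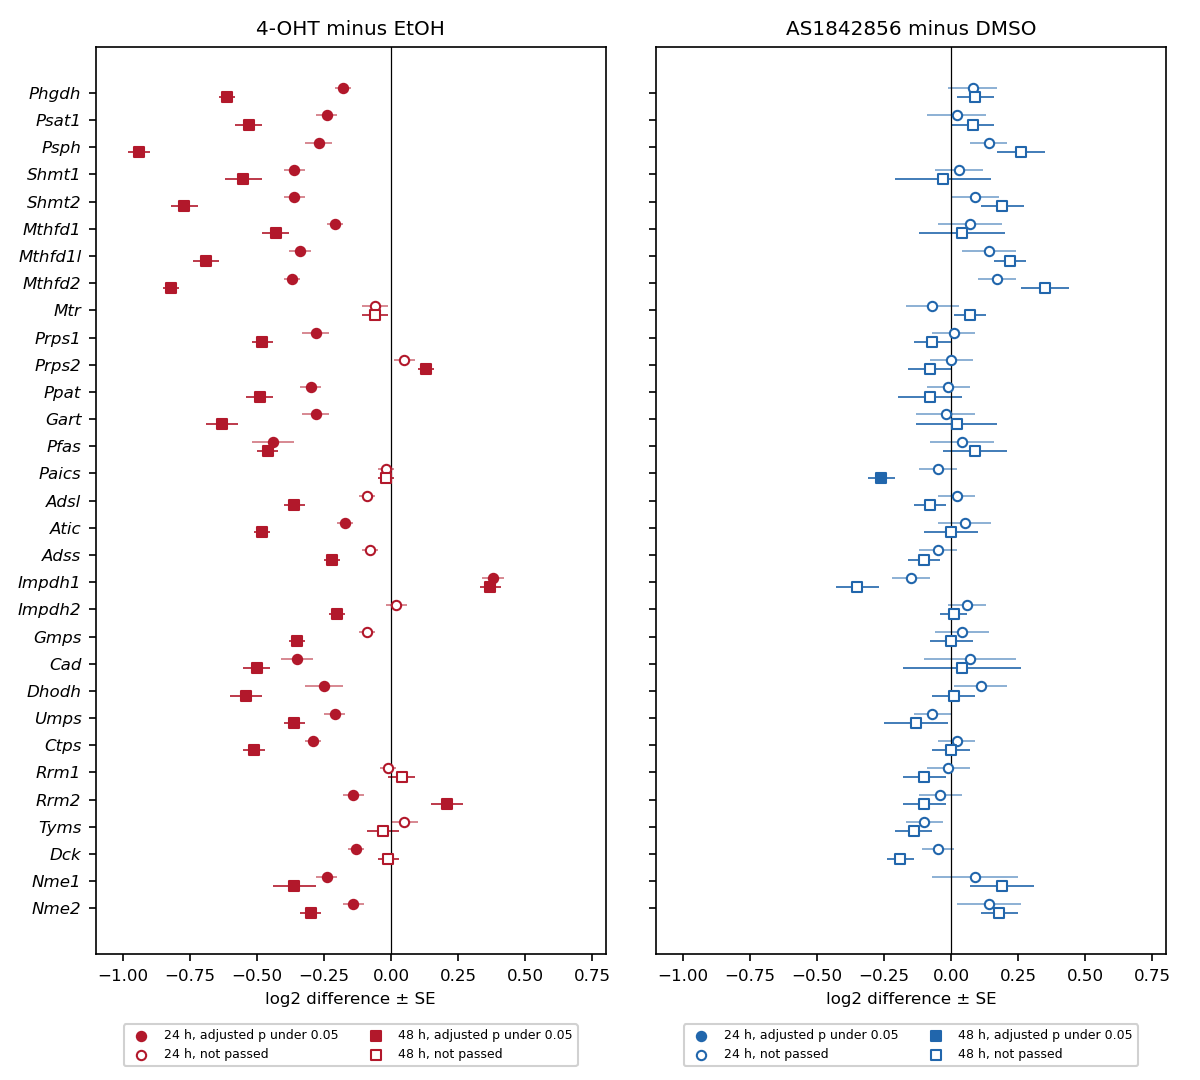
Points are log2 differences of treated from vehicle libraries with standard errors (3 libraries a group), for 4-OHT on the left and AS1842856 on the right. Circles are 24 h and squares 48 h, and filled symbols passed the test. In the left panel 23 filled squares lie below 0 and 3 above it, and in the right panel Paics is the filled symbol.

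The enzymes of serine synthesis fell together after 4-OHT, with all 3 lower at both times. Phgdh, the dehydrogenase of the first step, fell by 0.18 ± 0.03 after 24 h and 0.61 ± 0.03 after 48 h (limma, adjusted p = 0.00471 and 1.06e-06). Psat1, the aminotransferase of the second step, fell by 0.24 ± 0.04 and by 0.53 ± 0.05 (limma, adjusted p = 0.00292 and 2.38e-05). Psph, the phosphatase that releases serine, showed the largest 48 h difference of any member. Its log2 value at 24 h was 10.32, 10.26 and 10.3 with 4-OHT, against 10.57, 10.46 and 10.65 with EtOH. At 48 h it was 10.14, 10.15 and 10.11 with 4-OHT, against 11.02, 11.05 and 11.15 with EtOH. The groups did not overlap at either time, and Psph fell by 0.27 ± 0.05 and by 0.94 ± 0.04 (limma, adjusted p = 0.0055 and 7.31e-07). In annotation GENCODE M21, 10.4% of the exonic bases of Psph (ENSMUSG00000029446, GRCm38 chromosome 5, 129765558 to 129787449, minus strand) are shared with Cct6a on the other strand. The sources used here give neither the counting rule nor the use of strand, and reads there cannot be told apart. Of the 31-base words in Phgdh transcripts, 71.5% also occur in other annotated genes, mostly in Gm7901, and its reads may be split.

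Psph with AS1842856 was 10.4, 10.5 and 10.28 at 24 h, against 10.25, 10.23 and 10.27 with DMSO. After 48 h Psph was 10.7, 10.41 and 10.76, against 10.36, 10.3 and 10.42. The groups did not overlap at 24 h but did at 48 h, and the 48 h difference of 0.26 ± 0.09 did not pass (limma, adjusted p = 0.162). It passed with the replicate block, in the model of all 8 groups and in the authors' deposited table (adjusted p = 0.028, 0.0214 and 0.00433). Phgdh and Psat1 differed by 0.09 ± 0.07 and 0.08 ± 0.08 at 48 h of AS1842856 and did not pass (limma, adjusted p = 0.545 and 0.61).

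Of the 6 enzymes that carry folate-bound carbon units, 5 were lower with 4-OHT at both times, both in the cytosol and in the mitochondrion. Mthfd2, a mitochondrial methylene-tetrahydrofolate dehydrogenase that is high in many tumours (ENSMUSG00000005667, GRCm38 chromosome 6, 83305691 to 83325908, minus strand), was 11.66, 11.64 and 11.71 at 24 h with 4-OHT, against 12.03, 12.04 and 12.06 with EtOH. At 48 h it was 11.53, 11.52 and 11.55 with 4-OHT, against 12.32, 12.34 and 12.41 with EtOH. Mthfd2 fell by 0.37 ± 0.03 and by 0.82 ± 0.03 (limma, adjusted p = 9.4e-05 and 4.18e-07), and no library of one group reached the other. Shmt2, the mitochondrial serine hydroxymethyltransferase that moves a carbon from serine to folate, was 12.41, 12.33 and 12.42 at 24 h with 4-OHT, against 12.7, 12.74 and 12.79 with EtOH. After 48 h Shmt2 was 12.11, 12.01 and 12.01, against 12.87, 12.72 and 12.84. It fell by 0.36 ± 0.04 and by 0.77 ± 0.05 (limma, adjusted p = 0.000259 and 2.73e-06).

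Shmt1, the cytosolic counterpart of Shmt2, was 10.95, 10.79 and 10.88 at 24 h with 4-OHT, against 11.25, 11.23 and 11.21 with EtOH. It fell by 0.36 ± 0.04 after 24 h and 0.55 ± 0.07 after 48 h (limma, adjusted p = 0.00073 and 0.000233). Mthfd1l, the mitochondrial formyl-tetrahydrofolate synthetase, was 11.74, 11.66 and 11.63 at 24 h with 4-OHT, against 12.05, 11.99 and 12.01 with EtOH. It fell by 0.34 ± 0.04 and by 0.69 ± 0.05, and Mthfd1, the cytosolic enzyme that joins formate to folate, by 0.21 ± 0.03 and by 0.43 ± 0.05. The 24 h fall of Mthfd1 was not called in the authors' deposited table (adjusted p = 0.231). The sixth, Mtr, the methionine synthase, differed by -0.06 ± 0.05 at both times and did not pass (limma, adjusted p = 0.414 and 0.364).

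With AS1842856 the means of the mitochondrial genes of the group were above those with DMSO at 48 h, but the differences did not pass. Mthfd2 was 12.23, 11.99 and 12.27 with AS1842856, against 11.91, 11.68 and 11.85 with DMSO, and the groups did not overlap. Its difference of 0.35 ± 0.09 had adjusted p = 0.0703 by limma, 0.00342 with the replicate block and 0.00136 in the model of all 8 groups. In the authors' deposited table both Mthfd2 and Mthfd1l were called higher (adjusted p = 8.95e-06 and 0.0462). Mthfd1l was 12.42, 12.3 and 12.46, against 12.25, 12.1 and 12.17, a difference of 0.22 ± 0.06 with adjusted p = 0.0983 by limma and 0.0152 with the block. Shmt2 was 12.95, 12.73 and 13.08, against 12.77, 12.71 and 12.71, with overlapping groups, and its difference of 0.19 ± 0.08 did not pass in either fit (limma, adjusted p = 0.251 and, with the block, 0.095). Without DMSO replicate 1, Mthfd2 and Mthfd1l passed as higher (limma, adjusted p = 0.0464 and 0.046). At 24 h the groups of all 3 overlapped. Mthfd2 was then 11.76, 11.75 and 11.61 with AS1842856, against 11.51, 11.5 and 11.61 with DMSO. Mthfd1l was 12.42, 12.29 and 12.06, against 12.22, 12.11 and 12.02. Shmt2 was 12.77, 12.81 and 12.51, against 12.55, 12.58 and 12.67.

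**Figure D3:**
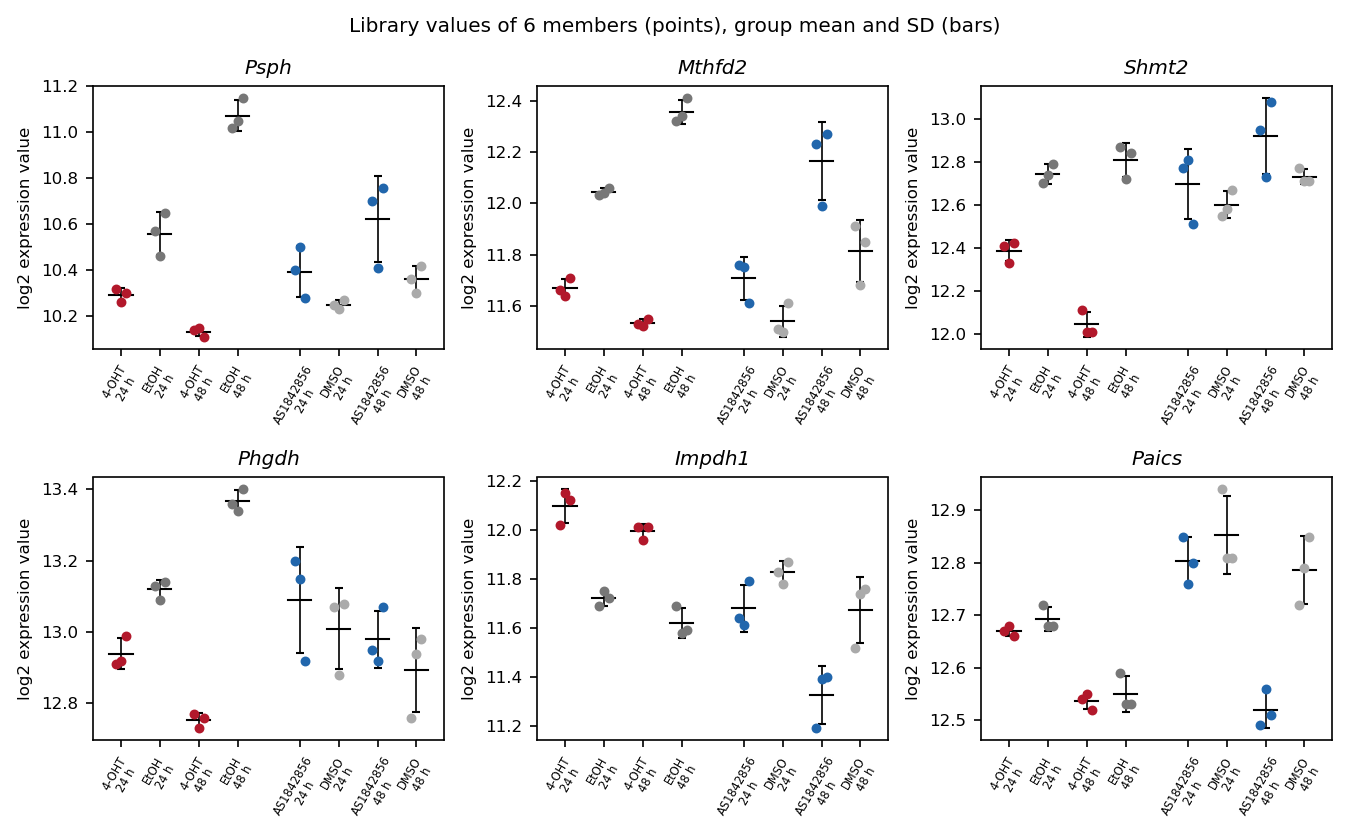
Log2 expression values of 6 members, with a point for each library and bars for the group mean and SD (n = 3). Psph, Mthfd2, Shmt2 and Phgdh are lower with 4-OHT than with EtOH at both times, Impdh1 is higher with 4-OHT and lower with AS1842856 at 48 h than with their vehicles, and Paics is lower with AS1842856 than with DMSO at 48 h. The vertical axes differ between panels.

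The paralogs Prps1 and Prps2 both encode synthetases that make phosphoribosyl pyrophosphate, the activated ribose, and they were called in opposite directions after 48 h of 4-OHT. Prps1 was 11.14, 11.16 and 11.26 at 24 h with 4-OHT, against 11.57, 11.42 and 11.4 with EtOH. At 48 h it was 11.09, 11.02 and 10.99, against 11.54, 11.49 and 11.51. Prps1 fell by 0.28 ± 0.05 and by 0.48 ± 0.04 (limma, adjusted p = 0.00537 and 1.01e-05). Prps2 was 11.56, 11.56 and 11.5 at 48 h with 4-OHT, against 11.43, 11.42 and 11.37 with EtOH, and it rose by 0.13 ± 0.03 (limma, adjusted p = 0.00987). The rise of Prps2 was not called in the authors' deposited table (adjusted p = 0.128) or in a single model of all 8 groups (adjusted p = 0.117). At 24 h Prps2 was 11.58, 11.51 and 11.5 with 4-OHT, against 11.53, 11.4 and 11.5 with EtOH, and the groups overlapped. With AS1842856 at 48 h Prps1 and Prps2 differed by -0.07 ± 0.07 and -0.08 ± 0.08 from DMSO (limma, adjusted p = 0.656 and 0.646). Of the 31-base words of Prps1, 18.8% also occur in Prps1l3, so part of its reads may be shared.

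Of the 6 enzymes that build IMP, 5 were lower after 48 h of 4-OHT and 4 after 24 h. Pfas, the synthetase that adds a nitrogen from glutamine, showed the largest 24 h fall of any member, with 11.16, 10.96 and 10.93 with 4-OHT, against 11.33, 11.59 and 11.46 with EtOH. It fell by 0.44 ± 0.08 after 24 h and 0.46 ± 0.04 after 48 h (limma, adjusted p = 0.00379 and 1.78e-05). Gart, an enzyme with 3 activities of the route, fell by 0.28 ± 0.05 and by 0.63 ± 0.06, and Atic, which completes IMP, by 0.17 ± 0.03 and by 0.48 ± 0.03. The 24 h falls of Gart and Atic were not called in the authors' deposited table (adjusted p = 0.0791 and 0.16). Adsl, the lyase used in IMP and AMP synthesis, differed by -0.09 ± 0.03 at 24 h without passing (limma, adjusted p = 0.0742) and fell by 0.36 ± 0.04 at 48 h. An annotated antisense gene, Gm15964, covers 19.7% of the exonic bases of Gart.

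Ppat and Paics encode the committed first enzyme and a later enzyme of this route and start head to head on chromosome 5, where 272 exonic bases of GRCm38 belong to both, on opposite strands (Ppat, ENSMUSG00000029246, 76913249 to 76951578, minus strand; Paics, ENSMUSG00000029247, 76951307 to 76967509, plus strand). Reads from those bases cannot be told apart without strand. After 24 h Ppat was 11.53, 11.47 and 11.47 with 4-OHT, against 11.82, 11.81 and 11.74 with EtOH. After 48 h it was 11.27, 11.17 and 11.1, against 11.75, 11.63 and 11.61. Ppat fell by 0.30 ± 0.04 and by 0.49 ± 0.05 (limma, adjusted p = 0.000478 and 8.43e-05).

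Paics was 12.67, 12.68 and 12.66 at 24 h with 4-OHT, against 12.72, 12.68 and 12.68 with EtOH. After 48 h Paics was 12.54, 12.55 and 12.52, against 12.59, 12.53 and 12.53. The groups overlapped or touched at both times, and the differences of -0.02 ± 0.03 did not pass (limma, adjusted p = 0.623 and 0.667), with a 95% interval of -0.09 to 0.05 at 48 h. In the AS1842856 arm Paics passed as lower at 48 h and Ppat did not, and the genes were not tested against each other. Paics at 48 h was 12.49, 12.56 and 12.51 with AS1842856, against 12.72, 12.79 and 12.85 with DMSO, and it fell by 0.26 ± 0.05 (limma, adjusted p = 0.0312, and 0.00775 with the replicate block). The call on Paics was lost, at the same direction, in 5 of 6 fits with a library left out (limma, adjusted p up to 0.14). Ppat at 48 h was 11.36, 11.67 and 11.58 with AS1842856, against 11.37, 11.73 and 11.74 with DMSO, and its difference of -0.08 ± 0.12 did not pass (limma, adjusted p = 0.779).

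**Figure D4:**
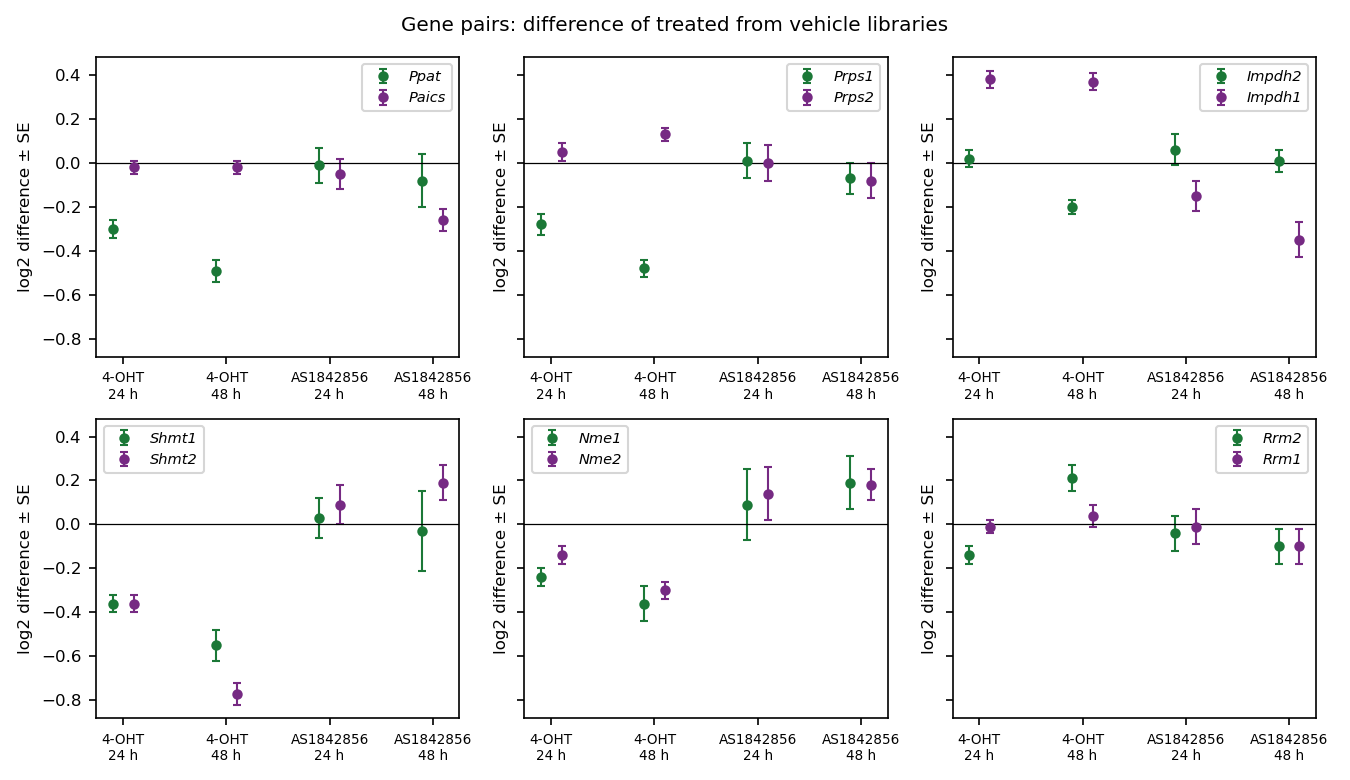
Log2 differences of treated from vehicle libraries with standard errors (n = 3 a group) for 6 pairs of members, at 24 h and 48 h of 4-OHT and of AS1842856. Ppat and Prps1 lie below 0 with 4-OHT and Paics and Prps2 near or above it, Impdh1 changes side between the arms, and both members of the Shmt and Nme pairs lie below 0 with 4-OHT.

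Past IMP, the AMP and GMP branches held the one member that rose at both times of 4-OHT. Impdh1, an IMP dehydrogenase of the rate-limiting step to GMP (ENSMUSG00000003500, GRCm38 chromosome 6, 29200434 to 29216364, minus strand), was 12.02, 12.15 and 12.12 at 24 h with 4-OHT, against 11.69, 11.75 and 11.72 with EtOH. After 48 h Impdh1 was 12.01, 11.96 and 12.01, against 11.69, 11.58 and 11.59. Impdh1 rose by 0.38 ± 0.04 and by 0.37 ± 0.04 (limma, adjusted p = 0.000312 and 5.59e-05). With AS1842856 Impdh1 was 11.64, 11.61 and 11.79 at 24 h, against 11.83, 11.78 and 11.87 with DMSO, and at 48 h 11.19, 11.39 and 11.4, against 11.52, 11.74 and 11.76. All 3 treated libraries were below all 3 vehicle libraries at 48 h, with a difference of -0.35 ± 0.08 and adjusted p = 0.0623 by limma and 0.00264 with the replicate block. In the authors' deposited table the adjusted p of that difference was 9.39e-06.

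Its paralog Impdh2 was 13.17, 13.16 and 13.23 at 24 h with 4-OHT, against 13.19, 13.11 and 13.21 with EtOH, with overlapping groups. At 48 h it was 12.95, 12.97 and 12.88, against 13.16, 13.12 and 13.14, and it fell by 0.20 ± 0.03 (limma, adjusted p = 8e-04). Impdh2 did not pass with AS1842856 at 48 h, at 0.01 ± 0.05 (limma, adjusted p = 0.934). Of its 31-base words, 72.1% also occur in the pseudogene Impdh2-ps. Adss, of the AMP branch, and Gmps, the GMP synthetase, differed by -0.08 ± 0.03 and -0.09 ± 0.03 at 24 h of 4-OHT and did not pass (limma, adjusted p = 0.0902 and 0.0629). At 48 h they fell by 0.22 ± 0.03 and by 0.35 ± 0.03 (limma, adjusted p = 0.00034 and 4.64e-05).

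All 4 pyrimidine enzymes were lower with 4-OHT at both times. Cad, which carries the first 3 activities of the route, fell by 0.35 ± 0.06 and by 0.50 ± 0.05, Dhodh, the dehydrogenase of the mitochondrial membrane, by 0.25 ± 0.07 and by 0.54 ± 0.06, Umps, which makes UMP, by 0.21 ± 0.04 and by 0.36 ± 0.04, and Ctps, the CTP synthetase, by 0.29 ± 0.03 and by 0.51 ± 0.04. Their 48 h adjusted p-values by limma were 3.7e-05, 0.000133, 0.000138 and 2.33e-05. The 24 h call on Dhodh was lost in 3 of 6 fits with a library left out (limma, adjusted p up to 0.114). Cad and Umps were not called at 24 h in the authors' deposited table (adjusted p = 0.14 and 0.0606). None of the 4 passed with AS1842856, with differences between -0.13 and 0.11 over both times.

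The enzymes of deoxynucleotide and triphosphate supply did not share 1 direction at 48 h, when 2 fell, 1 rose and 3 did not pass. Rrm2, the small subunit of ribonucleotide reductase that is made in S phase, was 11.88, 11.89 and 11.81 at 24 h with 4-OHT, against 12.05, 11.99 and 11.97 with EtOH, and it fell by 0.14 ± 0.04 (limma, adjusted p = 0.0188). That fall was not called in the authors' deposited table (adjusted p = 0.168). At 48 h Rrm2 was 11.86, 11.84 and 11.73 with 4-OHT, against 11.73, 11.57 and 11.5 with EtOH, and it rose by 0.21 ± 0.06 (limma, adjusted p = 0.0159). The 48 h groups met at 11.73 without overlap, and the call was lost in 4 of 6 fits with a library left out (limma, adjusted p up to 0.0578). Rrm1, the large subunit, differed by -0.01 ± 0.03 and 0.04 ± 0.05 and Tyms, the thymidylate synthase, by 0.05 ± 0.05 and -0.03 ± 0.06, and neither passed. Dck, the deoxycytidine kinase of salvage, fell by 0.13 ± 0.03 at 24 h (limma, adjusted p = 0.0118) and differed by -0.01 ± 0.04 at 48 h. The nucleoside diphosphate kinases Nme1 and Nme2 at 48 h fell by 0.36 ± 0.08 and by 0.30 ± 0.04 (limma, adjusted p = 0.00416 and 0.000506). Both share exons with the readthrough gene Gm20390, with 11.7% of the 31-base words of Nme1 and 47.9% of those of Nme2, so their reads may be split.

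Rrm2 at 48 h was 12.13, 12.32 and 12.29 with AS1842856, against 12.21, 12.39 and 12.44 with DMSO, and the groups overlapped. With AS1842856 at 48 h, Dck differed by -0.19 ± 0.05, with adjusted p = 0.0684 by limma and 0.0149 with the replicate block, and Nme2 by 0.18 ± 0.07, with adjusted p = 0.205 and, with the block, 0.0342. As a gauge of S phase, 16 DNA replication genes such as Mcm2 to Mcm7 were set beside these members. At 48 h of 4-OHT 2 of the 16 were higher and 1 lower, against 25% and 25.8% of tested genes. The median difference was 0.06. At 48 h of AS1842856 none was higher and 2 were lower, against 1.88% and 2.97% of tested genes. The median was then -0.22, and 15 of the 16 differences were below 0. With the replicate block none was higher and 10 were lower, against 6.66% and 7.54% of tested genes.

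The vehicle libraries changed with time too. In EtOH at 48 h against EtOH at 24 h, 3 members were higher and 9 lower, where 13.4% of tested genes were higher and 12% lower. Psph rose by 0.51 ± 0.05, Mthfd2 by 0.32 ± 0.03 and Phgdh by 0.25 ± 0.03 (limma, adjusted p = 0.00125, 0.00101 and 0.00163), and Rrm2 fell by 0.41 ± 0.05 (limma, adjusted p = 0.00241). Without EtOH replicate 1 of 24 h, 5 members were lower. The 48 h libraries lay wholly above the 24 h libraries for 4 members and below them for 12, against 23.5% and 21% of tested genes. Of the 16 replication genes, 14 fell in the same comparison. In DMSO no member passed at 48 h against 24 h, with 1 gene, or 0.00872%, called higher and 4 members at an unadjusted p under 0.05. The DMSO libraries of 48 h lay wholly above those of 24 h for 3 members and below them for 6, against 8.17% and 9.2% of tested genes. Psph differed there by 0.11 ± 0.06 and Mthfd2 by 0.27 ± 0.07 (limma, adjusted p = 0.555 and 0.403). Between groups with the same treatment, the median member was 0.22 lower at 48 h than at 24 h with 4-OHT, 0.17 lower with AS1842856, 0.12 lower with DMSO and 0.06 lower with EtOH, of which the first 2 were not tested.

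The response to 4-OHT itself changed with time, by a test of the 48 h difference against the 24 h difference. It was lower at 48 h for 14 members and higher for 1, where 9.03% of tested genes were lower and 6.57% higher. Psph moved by -0.67 ± 0.07, Mthfd2 by -0.45 ± 0.04 and Phgdh by -0.43 ± 0.04 (limma, adjusted p = 8.55e-05, 5.5e-05 and 7.16e-05). For Phgdh the 4-OHT libraries were 12.77, 12.73 and 12.76 at 48 h and 12.91, 12.92 and 12.99 at 24 h, whereas the EtOH libraries were 13.36, 13.34 and 13.4 at 48 h and 13.13, 13.09 and 13.14 at 24 h. The mean of Psph was 10.14 ± 0.0218 (SD, n = 3) in 4-OHT libraries at 48 h and 10.29 ± 0.031 at 24 h, against 11.07 ± 0.0717 in EtOH libraries at 48 h and 10.56 ± 0.093 at 24 h. For each of these 3 genes the 4-OHT mean was lower and the EtOH mean higher at 48 h than at 24 h. Rrm2 moved by 0.35 ± 0.08 (limma, adjusted p = 0.00787), with means of 11.81 ± 0.0691 in 4-OHT libraries at 48 h and 11.86 ± 0.043 at 24 h, against 11.6 ± 0.116 in EtOH libraries at 48 h and 12.01 ± 0.0407 at 24 h. In a single model of all 8 groups 5 members were lower and none higher, and without EtOH replicate 1 of 48 h 2 were higher. No member's response to AS1842856 differed between 48 h and 24 h past the test, 1 had an unadjusted p under 0.05, and 1 of 11470 genes (0.00872%) was called lower.

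Set against each other, the response to AS1842856 lay above the response to 4-OHT for 6 members and below it for 1 at 24 h, where 1.95% of tested genes were higher and 4.15% lower. Mthfd2 differed by 0.53 ± 0.07, Mthfd1l by 0.48 ± 0.11 and Shmt2 by 0.45 ± 0.10 (limma, adjusted p = 0.000958, 0.0274 and 0.0202), and Impdh1 by -0.53 ± 0.08 (limma, adjusted p = 0.00186). The count at 24 h rested on single libraries. Without AS1842856 replicate 3 it was 15 higher, and without 4-OHT replicate 2 or EtOH replicate 3 it was 1 higher, Mthfd2. It was 2 higher without EtOH replicate 2, and 3 higher without AS1842856 replicate 2, DMSO replicate 2, 4-OHT replicate 3 or EtOH replicate 1.

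At 48 h the response to AS1842856 lay above that to 4-OHT for 18 members and below it for 4, where 18% of tested genes were higher and 19.1% lower. The largest differences were those of Psph at 1.2 ± 0.11, Mthfd2 at 1.17 ± 0.10 and Shmt2 at 0.96 ± 0.10 (limma, adjusted p = 9.27e-06, 6.66e-06 and 2.98e-05). Below 0 were Impdh1 at -0.72 ± 0.10, Rrm2 at -0.31 ± 0.11, Paics at -0.25 ± 0.06 and Dck at -0.18 ± 0.06 (limma, adjusted p = 0.000167, 0.0353, 0.00494 and 0.0296). The blocked fit of this contrast also took the 4-OHT and EtOH replicate numbers as blocks, which did not pair those libraries (correlations of -0.16 to 0.05). In that fit 22 members were higher and 4 lower, against 21.7% and 21.6% of tested genes. Those gained were Shmt1, Mthfd1, Cad and Umps (limma with the block, adjusted p = 0.00474, 0.000854, 0.00155 and 0.00952). Without a variance trend 2 members were lower in this contrast, as they were without 4-OHT replicate 1, 4-OHT replicate 2 or EtOH replicate 3. The vehicles of the arms differed in level as well. Mean Psph in EtOH libraries at 48 h was 11.07 and in DMSO libraries 10.36, and mean Mthfd2 was 12.36 in EtOH and 11.81 in DMSO libraries. The difference between the vehicles was not tested.

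Beyond the 31, 45 of 49 further genes of folate handling, nucleotide salvage and related enzymes were tested. Of these, 3 were higher and 12 lower after 24 h of 4-OHT, and 7 were higher and 15 lower after 48 h, with medians of -0.05 and -0.08. As shares of the 45 these were 6.67% higher and 26.7% lower at 24 h, against 15.7% and 13.7% of all tested genes, and 15.6% higher and 33.3% lower at 48 h, against 25% and 25.8%. Aldh1l2, the mitochondrial formyl-tetrahydrofolate dehydrogenase, was 6.08, 6.13 and 6.5 at 48 h with 4-OHT, against 8.07, 8.2 and 8.5 with EtOH, and it fell by 2.02 ± 0.14 (limma, adjusted p = 6.15e-06). It had fallen by 0.38 ± 0.11 at 24 h (limma, adjusted p = 0.0307). Most of the wider gap at 48 h lay in the vehicle. From 24 h to 48 h the mean of Aldh1l2 rose from 6.9 to 8.26 in EtOH libraries and went from 6.52 to 6.24 in 4-OHT libraries. Rrm2b, the p53-induced small subunit of ribonucleotide reductase, fell by 0.79 ± 0.07, and Slc19a1, the reduced folate carrier, by 0.67 ± 0.04 at 48 h (limma, adjusted p = 2.03e-05 and 2.29e-06). Adssl1, a paralog of Adss that is high in muscle, rose by 1.1 ± 0.04 and by 0.93 ± 0.04 at 24 h and 48 h (limma, adjusted p = 3.16e-06 and 6.05e-07).

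Pnp, the purine nucleoside phosphorylase of salvage, fell in both arms. It was 13.18, 13.19 and 13.12 at 48 h with 4-OHT, against 14.06, 13.91 and 14 with EtOH, and 12.91, 13.25 and 13.25 with AS1842856, against 13.87, 14.04 and 14 with DMSO. The falls were of 0.82 ± 0.04 and 0.83 ± 0.10 (limma, adjusted p = 1.26e-06 and 0.00716), and the difference between them of -0.01 ± 0.12 did not pass (limma, adjusted p = 0.97). With AS1842856 at 48 h, Tk1, the thymidine kinase of S phase, also fell, by 0.35 ± 0.06 (limma, adjusted p = 0.027), and it was named after its values were seen. None of the 45 passed at 24 h of AS1842856, where replicate 3 lay among the DMSO libraries for Pnp. At 48 h 1 was higher and 2 were lower, or 2.22% and 4.44%, against 1.88% and 2.97% of all tested genes. With the replicate block 3 of the 45 were higher and 4 lower, where that fit called 6.66% and 7.54% of all tested genes.

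Foxo1, the targeted gene, fell by 1.69 ± 0.07 at 24 h of 4-OHT and fell by 1.97 ± 0.06 at 48 h (limma, adjusted p = 4.09e-06 and 1.01e-07). After 48 h of AS1842856 Foxo1 was 9.35, 9.15 and 9.05, against 9.69, 9.4 and 9.34 with DMSO, and the groups overlapped. That difference did not pass by limma and passed as lower with the replicate block. Atf4 was 12.27, 12.22 and 12.3 at 24 h with 4-OHT, against 12.6, 12.56 and 12.67 with EtOH, and 12.18, 12.18 and 12.17 at 48 h, against 12.83, 12.9 and 13.01. It fell by 0.34 ± 0.04 and by 0.74 ± 0.05 (limma, adjusted p = 0.00036 and 3.12e-06). With AS1842856 at 48 h Atf4 was 13.01, 12.8 and 13.03, against 12.76, 12.66 and 12.68 with DMSO, a difference of 0.25 ± 0.07 with adjusted p = 0.0926 by limma and 0.0172 with the replicate block. Myc fell in both arms at 48 h, by 0.66 ± 0.03 with 4-OHT and by 0.63 ± 0.07 with AS1842856 (limma, adjusted p = 7.37e-07 and 0.00626). The 48 h responses of Atf4 differed by 0.99 ± 0.09 between AS1842856 and 4-OHT (limma, adjusted p = 8.41e-06), and those of Myc by 0.03 ± 0.08 without passing (limma, adjusted p = 0.799).

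Markers of other cells moved with 4-OHT alongside the members. Of 7 myeloid markers Lyz2, Csf1r and Cx3cr1 reached the filter, which used a mean with the 4-OHT libraries in it. Csf1r was 3.46 to 4.43 in 4-OHT libraries over both times, against 3.16 to 3.27 in EtOH libraries, and a gene this low elsewhere may have reached the filter through the 4-OHT libraries, so its direction is given without a call. Lyz2 rose by 0.86 ± 0.10 after 24 h and 0.84 ± 0.11 after 48 h (limma, adjusted p = 0.000428 and 0.000199). The summed level of the 7 was 7.58 to 7.68 in 4-OHT libraries at 24 h, against 6.72 to 6.97 in EtOH libraries, and 7.74 to 7.92 at 48 h, against 6.84 to 7.15. Most of that sum was Lyz2, whose mean in 4-OHT libraries was 7.36 at 24 h and 7.48 at 48 h. Elane and S100a8 were listed at 0 in every library. Pecam1, the 1 of 5 stromal and endothelial markers tested and a gene that B-lineage cells also express, rose by 0.59 ± 0.04 and by 1.26 ± 0.05 (limma, adjusted p = 2.39e-05 and 4.02e-07), and Pdgfra was listed at 0. The summed level of the 5 was 10.25 to 10.33 in 4-OHT libraries at 24 h, against 9.69 to 9.7 in EtOH libraries, and 10.63 to 10.7 at 48 h, against 9.36 to 9.51. That sum was almost wholly Pecam1, as Col1a1, Col1a2 and Cdh5 had log2 values below 0 in every library. The 7 T and NK cell markers summed to 4.62 to 4.71 in 4-OHT libraries at 48 h, against 4.23 to 4.25 in EtOH libraries. Of these Cd3g, which was under the filter, was 3.6, 3.42 and 3.53, against 2.54, 2.53 and 2.53, and the others moved less. With AS1842856 at 48 h the summed B-lineage level was 15.69 to 15.77, against 15.95 to 16.08 with DMSO. Of the 8 markers 5 were lower, against 2.97% of tested genes. Of the same 8, 2 were higher and 5 lower at 24 h of 4-OHT, against 15.7% and 13.7% of tested genes. At 48 h of 4-OHT 3 were higher and 3 lower, against 25% and 25.8%. The part of these markers in the differences of the 31 members was not tested.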

How the data were processed

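RNA from 24 libraries in 8 groups was sequenced, and 4 deposited tables, 1 for each treatment and time, were used. The submitters' processing notes name build mm10 and the tools DESeq2 1.44.0, STAR 2.7.11b and Salmon 1.1.1. Nothing used here gives their roles, the counting rule or strandedness. Per the file headers, the authors deposited log2 expression values per library, log2 fold changes with standard errors, p-values with adjusted p-values, and a test statistic, a score that was used here to check the fold changes against their errors. The values were normalised by the authors before deposit, the transformation is not named, and the precision that depth would give is unknown.

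Each table held 41444 genes, of which 21444 stood at 0 in every library. The 11470 genes whose mean as deposited, read as the log2 of a normalised count plus 1, came to a count of at least 10 were fitted with limma 3.58.1 in R 4.3.3, with a trended empirical Bayes variance and Benjamini-Hochberg adjustment over all of them. Each of the 6 comparisons of groups used its own 2 groups, and each contrast of 2 responses used a model of its 4 groups. Tests were two-sided, calls had an adjusted p under 0.05, and ± after a difference is its standard error. The fits were checked on simulated data. Groups and replicate numbers came from the labels. No 2 libraries were copies, the smallest root mean square difference between 2 being 0.144. Same-numbered libraries deviated together, with every correlation over 0.1, in the AS1842856 and DMSO groups at 48 h (0.15 to 0.41), so a fit with the replicate number as a block is given beside those results. Replicates 2 and 3 also correlated across numbers there, at 0.18 and 0.11, so the block may not follow true pairs.

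Positions and overlaps came from GENCODE M21, and start windows from RefSeq. All members could be named. Values of every library are given for up to 3 called members each way in each treatment comparison and each contrast of responses, those with the largest differences, and for paralogs that parted. Other pathway genes were named from a called difference of 0.5 on, at most 4 each way in a comparison, and 1 further result is not reported here by name. The members and lists were chosen with earlier results of these data known.

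The alternatives were no filter on low genes, libraries rescaled to equal medians, no variance trend, a model of all 8 groups, the replicate block, each library left out, and the authors' deposited adjusted p.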

Additional observations from a re-analysis of the deposited data

Results flagged for a closer look

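The difference of 4-OHT from EtOH libraries was not the same at 48 h as at 24 h for 15 members, by a limma test of the 48 h difference minus the 24 h difference (adjusted p under 0.05). Among serine synthesis genes, Psph moved by -0.67, Phgdh by -0.43 and Psat1 by -0.29 on the log2 scale. Among folate genes, Mthfd2 moved by -0.45, Shmt2 by -0.41, Mthfd1l by -0.35 and Mthfd1 by -0.22. Among purine genes, Gart moved by -0.35, Atic by -0.31, Adsl by -0.27, Gmps by -0.26, Impdh2 by -0.22 and Adss by -0.15. Ctps, of pyrimidine synthesis, moved by -0.22. Rrm2, of deoxynucleotide synthesis, was the one that moved up, by 0.35. Of these 15 calls, 12 held in each fit that left out 1 library, with Mthfd1, Adss and Ctps as the exceptions, and 5 held in every alternative that was run.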

How the results depend on the processing

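Over the 10 comparisons, 105 member values were called, and 1469 alternative values were computed for them. Of these, 1306 kept direction and call, 163 kept the direction and lost the call, and none reversed. In the order 4-OHT at 24 h, 4-OHT at 48 h and AS1842856 at 48 h, 22, 26 and 1 members were called, and 9, 24 and 0 of those calls held in every alternative. Rescaling moved the median of all genes by less than 0.1. The causes of the changes below were not tested.

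In a model of all 8 groups, 2219 genes (3381 in the reported fit) and 10 lower members were called at 24 h of 4-OHT, and the authors' deposited table gave 13 lower members there. For AS1842856 at 24 h, where 1 gene was called, there were 4 with no filter, 0 in the model of all 8 groups, 11 without both libraries numbered 3, 15 in the authors' table and 1 to 20 with 1 library left out. For AS1842856 at 48 h, with 557 genes called, there were 205 with no filter, 1220 in the model of all 8 groups, 1629 with the replicate block, 849 without both libraries numbered 1, 1505 in the authors' table and 108 to 901 with 1 library left out. Members called higher there numbered 2 in the model of all 8 groups, 4 with the block, 3 in the authors' table and 0 to 2 with 1 library left out. Members called lower numbered 0 with no filter or no trend, 3 in the model of all 8 groups, with the block or in the authors' table, 4 (Paics, Tyms, Dck and Impdh1) without both libraries numbered 1, and 0 to 3 with 1 library left out. Leaving out both numbered libraries was chosen after seeing the data.

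For EtOH over time, 2908 genes became 1689 with no filter, 1332 in the model of all 8 groups and 1704 to 2858 with 1 library left out, and 9 lower members became 5, 3 and 5 to 13. For DMSO over time, 1 gene became 7 with no filter, 223 in the model of all 8 groups (with 1 higher member), 3 with the block and 1 to 4 with 1 library left out. For the 4-OHT response over time, 1790 genes became 453, 14 lower members 5 and 1 higher member 0 in the model of all 8 groups, and the higher members were 2 after rescaling and 1 to 2 with 1 library left out. For the AS1842856 response over time, 1 gene became 9 with no filter, 5 in the model of all 8 groups and 1 to 4 with 1 library left out. Between the responses at 24 h, 700 genes became 1106 in the model of all 8 groups, 461 with the block and 408 to 2037 with 1 library left out, and 6 higher members became 3 with no filter, 3 with the block and 1 to 15. At 48 h, 4 lower members became 2 without a trend and 2 to 6 with 1 library left out.

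Outside AS1842856 at 48 h, the replicate numbers did not pair the libraries, with correlations of -0.34 to 0.46. Between AS1842856 and DMSO at 24 h, libraries of unlike number correlated at up to 0.51. With the block, 21 members were lower and 1 higher at 24 h of 4-OHT, and 23 and 3 at 48 h. Between the responses at 48 h, 22 members were higher and 4 lower with the block.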
